A study of Rattus norvegicus with 6 samples.

Results

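Pancreatic duct marker genes were compared between islets of 3-month-old and 12-month-old rats, to describe the duct transcripts in islet preparations and how they differed with age. The set was 10 genes long: *Krt19*, *Krt7*, *Krt8*, *Krt18*, *Sox9*, *Cftr*, *Spp1*, *Muc1*, *Anxa2* and *Tff2*. Its members were found by matching the RefSeq accession of each array probe, without its version, to a gene symbol. A probe was matched for 7 of the 10 members, out of 13903 genes with a matched probe in all. No probe was matched for *Krt7*, *Sox9* or *Muc1*, which are not analysed here. Both groups were male Wistar rats with no treatment named in the labels, and they differed in age: the control group was 3 months old and the other 12 months old. Islets were freed from the pancreas by digestion with collagenase, and their RNA was labelled and hybridised to Arraystar arrays read in 1 colour. Each age had 3 arrays, and the study describes the RNA as coming from 3 rats of each age. RNA of a whole islet preparation holds every cell type in it, so that fewer cells of a type and less RNA per cell cannot be told apart.

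The exocrine pancreas drains through a tree of ducts, and duct cells line it. Duct cells secrete a fluid rich in bicarbonate, which flushes digestive enzymes from the acini into the gut. They are simple epithelial cells, held together by junctions and braced by keratin filaments, in which an acidic keratin always pairs with a basic one. Islets have no ducts of their own but lie close to small ones, so that isolated islets can carry attached duct and acinar cells.

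Promoter sequences are shown for both partners of a keratin pair, *Krt8* and *Krt18*, and for *Spp1*, because *Krt18* and *Spp1* varied most between arrays and *Krt8* varied least. The RefSeq promoter table of rat assembly GRCr8 held 6 of the 10 members. Each sequence below is the 250 bases before the gene's start, written 5′ to 3′ on the gene's own strand, with every TATAAA (the TATA box) or GGGCGG (the GC box bound by Sp factors) on either strand in capitals. *Krt8* lies on the minus strand (chr7:135010340-135010589), *Krt18* on the plus strand (chr7:135035918-135036167) and *Spp1* on the minus strand (chr14:5619805-5620054).
Krt8: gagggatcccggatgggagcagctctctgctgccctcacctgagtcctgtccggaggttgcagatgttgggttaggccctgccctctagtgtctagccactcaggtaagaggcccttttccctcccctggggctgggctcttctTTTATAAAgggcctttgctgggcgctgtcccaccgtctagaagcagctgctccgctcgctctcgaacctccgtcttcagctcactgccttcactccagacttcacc
Krt18: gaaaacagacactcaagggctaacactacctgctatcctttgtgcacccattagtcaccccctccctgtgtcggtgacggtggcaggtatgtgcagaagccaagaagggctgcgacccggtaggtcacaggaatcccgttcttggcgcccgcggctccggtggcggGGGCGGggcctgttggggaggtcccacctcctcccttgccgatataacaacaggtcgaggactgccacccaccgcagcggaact
Spp1: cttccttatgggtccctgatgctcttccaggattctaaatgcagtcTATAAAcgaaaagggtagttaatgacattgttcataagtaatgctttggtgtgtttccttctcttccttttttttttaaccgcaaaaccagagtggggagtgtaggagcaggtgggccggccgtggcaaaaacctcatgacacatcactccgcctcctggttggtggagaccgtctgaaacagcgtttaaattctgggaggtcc

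The *Krt8* and *Krt18* starts are 25.8 kb apart on chromosome 7 and face away from each other. The *Krt8* sequence held TATAAA with its first base 104 bases before the start, and overlapping letters gave the same motif on the opposite strand. The *Krt18* sequence held GGGCGG with its first base 84 bases before the start and no TATAAA, while that of *Spp1* held TATAAA 204 bases before the start and no GGGCGG. Over all 33469 promoter windows of the table, 12.9% held TATAAA and 30.5% held GGGCGG, so that these matches are a description of the letters and not of bound sites.

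Probe values are given below as log2 of the background-subtracted signal after quantile normalization. A value can be compared between arrays for 1 probe, but not between probes. Every one of the 7 genes was read by 1 probe, and each was well above background on 6 of 6 arrays and saturated on none. On the uncorrected scale their spots were between 13.1 and 8086 times the local background. The normalized values differed from those in the authors' deposited table by at most 0.01.

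The ages also differed over the arrays as a whole. Because a separate scan read the arrays of each age, the effect of the scan and that of age cannot be told apart in any value below. Probes well above background made up 75.6% ± 2.29 (SD, n = 3) of a 3-month array and 61.2% ± 2.62 (SD, n = 3) of a 12-month array. Negative control spots had a median signal of 30.2 ± 0.76 scanner units (SD, n = 3) at the younger age, against 90.5 ± 0.87 (SD, n = 3) at the older.

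*Krt8* and *Krt18* encode the keratin partners that form the filaments of simple epithelia, and *Krt19* encodes the acidic keratin most often used to stain ducts. *Krt19* read 12.84, 11.94 and 12.23 on the 3-month arrays and 12.17, 11.72 and 12.42 on the 12-month arrays. *Krt8* read 15.76, 15.68 and 15.14 at 3 months and 15.77, 15.12 and 15.54 at 12 months. For both genes the ages overlapped, and the whole range over 6 arrays was 1.13 and 0.65 log2 units. *Krt18* read 11.80, 10.96 and 9.002 at 3 months and 12.34, 8.80 and 13.18 at 12 months. It was low on 1 array of each age, 3-month replicate 3 and 12-month replicate 2, and the lowest and the highest of all its values were both 12-month arrays. The keratin partners thus differed in spread: the within-age SD was 1.93 for *Krt18* and 0.33 for *Krt8*, against a median of 0.43 over all tested probes.

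*Cftr* encodes the chloride and bicarbonate channel of the apical duct membrane. It read 9.81, 10.15 and 8.78 at 3 months and 10.54, 9.40 and 9.66 at 12 months. Its highest value was 12-month replicate 1 and its lowest 3-month replicate 3, with the ages overlapping between them. *Anxa2* encodes annexin A2, a calcium-dependent membrane-binding protein. It read 12.84, 12.31 and 12.92 at 3 months and 13.51, 11.89 and 12.32 at 12 months, so that the 12-month arrays held both its highest and its lowest value.

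*Spp1* encodes osteopontin, a secreted phosphoprotein of duct cells that macrophages also make. It read 13.08, 12.51 and 11.61 at 3 months and 13.84, 10.64 and 12.89 at 12 months. *Tff2* encodes a trefoil peptide secreted with mucus. It read 17.44, 17.50 and 16.52 at 3 months and 16.98, 15.42 and 17.06 at 12 months. Both secreted products were lowest on 12-month replicate 2, with a range over 6 arrays of 3.20 for *Spp1* and 2.08 for *Tff2*, and the ages overlapped for both.

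**Figure D1:**
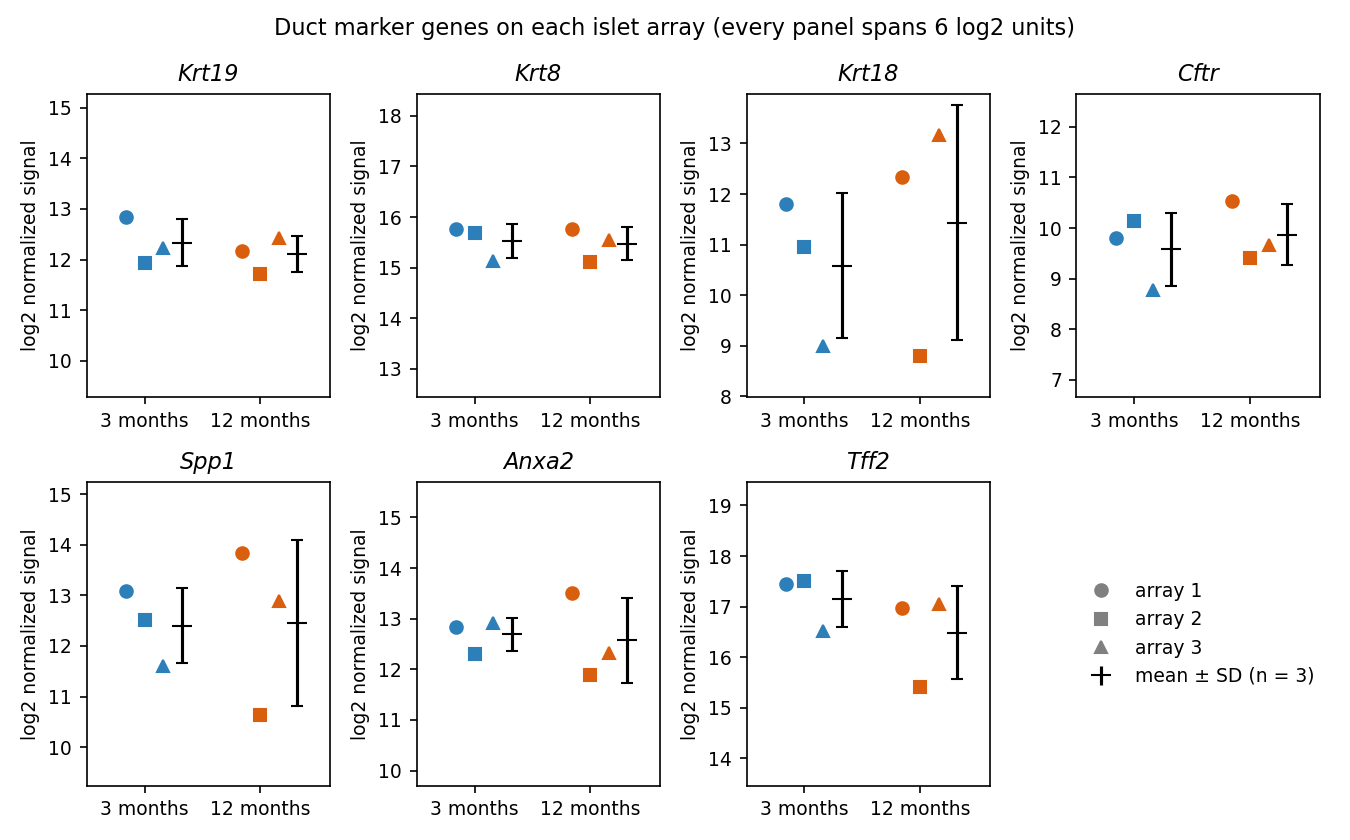
The plot of duct marker values shows the log2 normalized signal (y axis) of 7 genes on the 3-month arrays (blue) and 12-month arrays (orange), with the marker shape giving the replicate and the black bar the mean ± SD (n = 3). The ages overlap in every panel, and the 12-month squares, replicate 2, are the lowest 12-month points in all 7 panels.

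None of the 7 duct marker genes passed the test for an age difference. With limma and an adjusted p under 0.05 the count was 0 of 7, while 8.37% of the 17941 tested probes passed. At an unadjusted limma p under 0.05 the count was also 0 of 7, against 32.4% of all probes. The study's own criterion, more than a 2-fold change at an unadjusted p under 0.05, was met with limma's p by 0 of 7 genes and by 22% of all probes. With p-values of the plain test named in the methods in place of those of limma, it was again met by 0 of 7 genes, and by 15.2% of all probes unpaired and 8.66% paired. The ages did not overlap for 0 of 7 genes, and for 39.1% of all probes. The median difference, 12 months minus 3 months, was -0.05 on the log2 scale for the 7 genes and -0.17 for all tested probes, with 3 genes above 0 and 4 below. The median over the 7 genes was above 0 in 6 of the alternatives: 0.09 with normexp background correction (offset 50), 0.46 with array weights, 0.086 with 4 of the arrays, and 0.23, 0.066 and 0.028 without 12-month replicate 2, 3-month replicate 1 and 3-month replicate 2. The array weights behind the 0.46 were 3.22, 0.55 and 0.93 on 12-month replicates 1, 2 and 3, so that replicate 1 counted most. On the 3-month arrays they were 0.72, 1.17 and 0.73. Adjusted p-values from limma ran from 0.39 to 0.969. An exact two-sided permutation test over the arrays gave p-values between 0.5 and 1, and 3 arrays against 3 cannot go below 0.1.

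The precision of these differences varied widely between the genes. For *Krt8* the difference was -0.05 ± 0.29 (SE), with a 95% confidence interval from -0.75 to 0.65. For *Krt19* it was -0.23 ± 0.33 (SE), with an interval from -1.02 to 0.55. In this fit the interval of *Krt8* excludes a 2-fold change in either direction, and that of *Krt19* excludes a 2-fold rise. Neither interval bounds an effect of age alone, since scan and age cannot be told apart, and both depend on the scaling. Under a shift to a common 75th percentile *Krt8* differed by -0.42 ± 0.28 (SE) and *Krt19* by -0.45 ± 0.32 (SE). The differences of *Anxa2* (-0.12 ± 0.45, SE), *Cftr* (0.29 ± 0.46, SE) and *Tff2* (-0.67 ± 0.52, SE) had intervals from -1.19 to 0.96, from -0.81 to 1.39 and from -1.90 to 0.56. *Spp1* differed by 0.05 ± 0.83 (SE), with an interval from -1.91 to 2.02. *Krt18* differed by 0.85 ± 1.23 (SE), with an interval from -2.07 to 3.77, so that a rise of up to 13.6-fold lies within it.

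**Figure D2:**
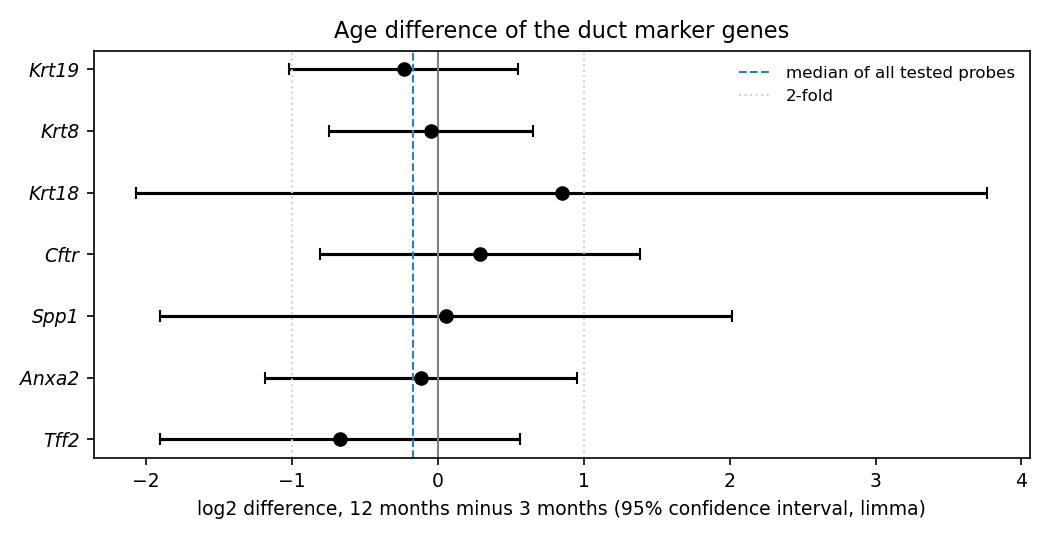
The plot of age differences shows, for 7 duct marker genes, the log2 difference of 12 minus 3 months (point) with its 95% confidence interval (bar), beside 0 (solid line), the 2-fold limits (dotted) and the median of all tested probes (dashed, -0.17). All 7 intervals include 0, and those of *Krt18* and *Spp1* are the widest.

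The *Krt18* difference, the largest of the 7, depended on single arrays. Without 12-month replicate 3 it was -0.021. Without 12-month replicate 2 it was 2.17, and *Krt18* met the study's own criterion but not the adjusted threshold (limma adjusted p = 0.125), so that 1 of 7 genes met that criterion. Without 12-month replicate 2 the *Spp1* difference was 0.96, and without 12-month replicate 1 it was -0.64. The direction of the difference changed when a single array was left out for *Krt19*, *Krt8*, *Krt18*, *Cftr*, *Spp1* and *Anxa2*, and stayed below 0 for *Tff2*, between -0.99 and -0.14.

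Within an age, most of the duct markers were high or low on the same arrays. All 7 were lowest of the 12-month arrays on replicate 2, where 31.5% of all probes were. Of the 3-month arrays, replicate 3 was lowest for 5 of 7 genes and for 33.5% of all probes, the exceptions being *Krt19* and *Anxa2*. As a mean over the 7 genes, the deviation from the mean of the age was 0.68, -1.06 and 0.38 on the 12-month arrays and 0.47, 0.11 and -0.58 on the 3-month arrays. The single largest deviation was that of *Krt18* on 12-month replicate 2, at -2.64, followed by *Spp1* on the same array at -1.82. *Krt8* deviated least there, at -0.36.

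Other genes of the exocrine pancreas were low on 12-month replicate 2, and less clearly on 3-month replicate 3. Of 17 tested acinar genes, 11 were lowest of the 12-month arrays on replicate 2, with a mean deviation of -0.68 and a median of -0.27 there. On 3-month replicate 3, 9 of the 17 were lowest, with a mean of -0.45 and a median of -0.12. The summed acinar signal ran from 3430468 to 4487723 on the 12-month arrays and from 3580187 to 4293720 on the 3-month arrays, in linear normalized units. Quantile normalization sets the brightest acinar probes alike, such as that of *Cela2a* with 18.57 on each 12-month array. Neither this sum nor the acinar deviations are thus a measure of acinar content. Of 18 tested duct identity genes 14, and of 11 duct secretion genes 8, were lowest on 12-month replicate 2, with mean deviations of -0.63 and -0.67. On 3-month replicate 3 it was 12 and 4 of them, with mean deviations of -0.31 and -0.21. The median deviations of these lists were -0.67 and -0.32 on 12-month replicate 2, and -0.40 and -0.01 on 3-month replicate 3. The 10 endocrine hormone and secretory granule genes had mean deviations between -0.08 and 0.13 on the 6 arrays, and 2 of the 10 were lowest on 12-month replicate 2. Some of their probes, such as that of *Ins1* with 18.72 on 12-month replicate 1 and on 3-month replicate 3, are so bright that quantile normalization itself sets their values alike, so that this small spread is no measure of how steady these genes were. Of 10 tested macrophage genes, 6 were lowest on 12-month replicate 2, and their mean deviations of 0.70, -0.43 and -0.27 on the 12-month arrays had the same order as those of the duct markers. On the 3-month arrays the mean deviations were 0.31, -0.78 and 0.46, and 0 of 10 were lowest on replicate 3. The summed macrophage signal ran from 28152 to 92252 at 12 months and from 37045 to 98484 at 3 months. On 12-month replicate 2 the mean deviation was also below 0 for the annexin (-0.46), mesenchymal (-0.39), osteopontin receptor (-0.26) and endothelial (-0.17) lists described below. It was above 0 there for the mesothelial (0.61), other keratin (0.46), Sox (0.12), Schwann and nerve (0.10), endocrine (0.07) and mucin and trefoil (0.03) lists. The part of acinar or macrophage cells in the duct marker values was not tested.

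**Figure D3:**
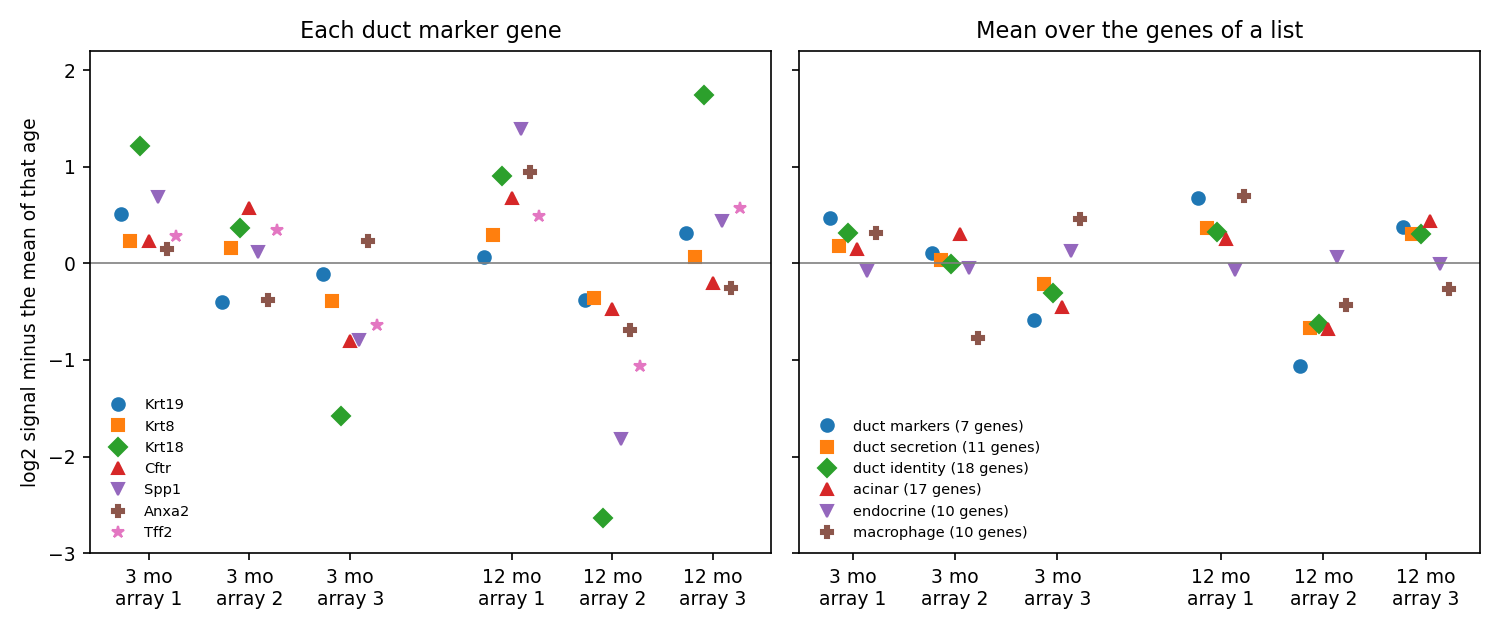
The plot of deviations shows, for each of the 6 arrays (x axis), the log2 signal minus the mean of that age: on the left for each of 7 duct marker genes, on the right as the mean over the genes of 6 lists. All 7 duct markers, the 3 duct lists, the acinar list and the macrophage list are below 0 on 12-month replicate 2, while the endocrine list lies between -0.08 and 0.13. Quantile normalization sets the brightest endocrine and acinar probes alike.

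Among the genes that make the duct's bicarbonate-rich fluid, 2 of 11 tested genes passed the adjusted threshold, 1 in each direction, where 8.37% of all probes did. *Slc4a4* encodes the sodium and bicarbonate cotransporter that loads duct cells with bicarbonate from the blood side. It read 11.37, 10.56 and 11.28 at 3 months and 9.23, 10.06 and 9.42 at 12 months, with no overlap, and fell by 1.504 on the log2 scale (SE 0.34, limma adjusted p = 0.0462). *Car2* encodes carbonic anhydrase 2, which makes bicarbonate inside the cell. It read 5.18, 5.50 and 5.78 at 3 months and 7.63, 6.40 and 7.16 at 12 months, with no overlap, and rose by 1.58 (SE 0.37, limma adjusted p = 0.0478). Both calls lay close to the threshold and depended on single arrays. With 1 array left out at a time, *Slc4a4* passed without 12-month replicate 2 (limma adjusted p = 0.0331) and without 3-month replicate 2 (limma adjusted p = 0.0477), and was lost without any of the other 4 (up to 0.159). *Car2* passed without 12-month replicate 2 (limma adjusted p = 0.0254) and was lost without any of the other 5 (up to 0.152), and it was also lost under a shift to a common 75th percentile (0.0896) and with normexp (0.06), where its difference was 0.91. The remaining 9 genes did not pass, among them *Sctr*, the secretin receptor, at -0.56 ± 0.62 (SE), *Aqp1*, a water channel, at -0.91 ± 0.38 (SE) and *Ano1*, a calcium-activated chloride channel, at -0.60 ± 0.39 (SE). These 3 examples, all below 0, were chosen after their values were seen. Of the 11 differences 4 were above 0 and 7 below. The median difference of the 11 genes was -0.32.

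Duct identity genes, the transcription factors, junction proteins and secreted products of duct and other epithelial cells, had 0 of 18 tested members called, and 3 at an unadjusted p under 0.05, where 32.4% of all probes were. Their median difference was 0.35. *Clu*, which encodes the secreted chaperone clusterin, differed by 0.59 ± 0.58 (SE). *Epcam*, an epithelial adhesion molecule, read 14.06, 14.07 and 14.39 at 3 months and 15.19, 14.89 and 15.25 at 12 months. Its ages did not overlap, but its difference of 0.94 ± 0.24 (SE) did not pass the adjusted threshold (limma adjusted p = 0.0579), although it passed in 5 of 19 alternatives. *Onecut1*, a transcription factor of the duct lineage, was well above background on 6 of 6 arrays, as were *Sctr*, *Cdh1* and *Cldn7*, while *Cldn4* was on 5 of them. These genes were thus measured at both ages in these preparations, but the part of duct cells in their signal was not tested.

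**Figure D4:**
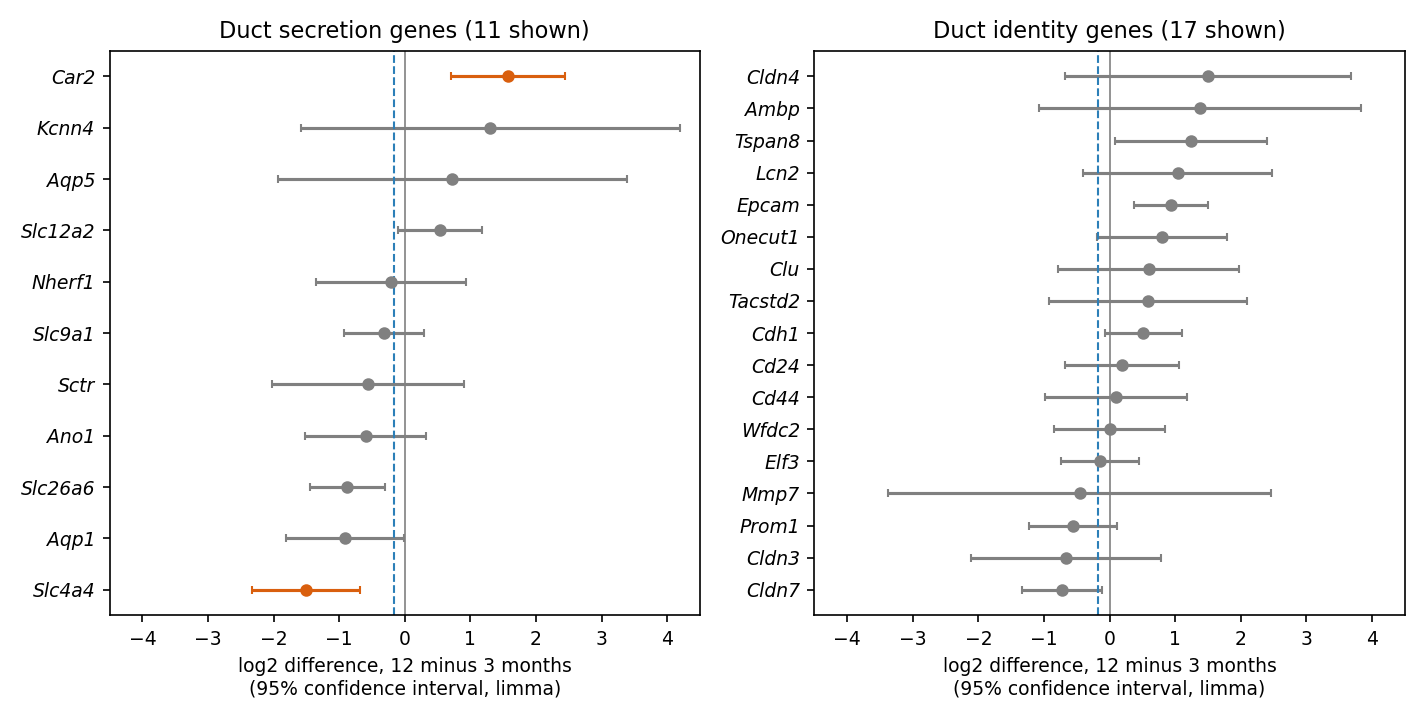
The plot of other duct genes shows the log2 difference of 12 minus 3 months with its 95% confidence interval for 11 duct secretion genes (left) and 17 of the 18 duct identity genes (right), with genes past an adjusted p of 0.05 in orange and the median of all tested probes as a dashed line. *Car2* and *Slc4a4*, at 1.58 and -1.504, are the only genes drawn in orange, and they lie on opposite sides of 0.

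The families and partners of the duct markers were followed in the same comparison. *S100a10* encodes the small calcium-binding protein that joins annexin A2 into a complex. It read 8.35, 7.89 and 7.0004 at 3 months and 11.14, 9.09 and 11.07 at 12 months, with no overlap. It rose by 2.69 (SE 0.63, limma adjusted p = 0.0489), while *Anxa2* differed by -0.12. Leaving out any array but 12-month replicate 2 ended the call, with limma adjusted p-values up to 0.155, and without that array the difference was 3.36 (limma adjusted p = 0.0187). The call was also lost under the shift to a common 75th percentile (0.054). Of the 11 tested genes of the annexin list, *S100a10* included, 1 was called higher and none lower, where 8.37% of all probes were called. The other keratins had 0 of 18 tested genes called and 6 at an unadjusted p under 0.05, a share close to that of all probes (32.4%), with a median difference of -0.96, and 14 of the 39 matched keratin genes were above background on no array. The keratins with the brightest probes, *Krt25*, which is a keratin of the hair root, and *Krt88*, differed by -0.75 ± 0.35 and -1.57 ± 0.44 (SE), and *Krt88* passed the adjusted threshold in 3 of 19 alternatives.

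The mucin and trefoil list had 0 of 3 tested genes called and 1 at an unadjusted p under 0.05, while over all probes the shares were 8.37% and 32.4%. *Tff3*, which like *Tff2* encodes a secreted trefoil peptide, differed by -0.38 ± 0.28 (SE), and *Muc20*, a membrane mucin, by -1.25 ± 0.52 (SE). Of 6 tested osteopontin receptor genes 0 were called and 1 passed an unadjusted p under 0.05, beside the same shares over all probes. All 6 differences were above 0, with a median of 0.45. Under the shift to a common 75th percentile that of *Itgb1* was -0.15, and without 12-month replicate 1 that of *Itgb6* was -0.10. The integrin chains *Itgb1* and *Itgb6* differed by 0.22 ± 0.27 (SE) and 0.16 ± 0.29 (SE).

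In place of *Sox9*, the duct transcription factor that had no matched probe, its family could be read. *Sox7*, a factor of endothelial development, read 4.62, 6.19 and 6.21 at 3 months and 8.51, 8.12 and 7.55 at 12 months, and rose by 2.38 (SE 0.50, limma adjusted p = 0.0376). *Sox10*, a factor of glia such as Schwann cells, read 8.45 and 8.35 on the 3-month arrays that gave a value and 6.59, 6.66 and 5.71 at 12 months. The remaining array, 3-month replicate 1, gave no value and was left out of its fit. It fell by 2.08 (SE 0.38, limma adjusted p = 0.0335). Of 9 tested Sox genes, 1 was called higher and 1 lower, where 8.37% of all probes were called. Under the shift to a common 75th percentile *Sox2* was called as well. With 1 array left out at a time, *Sox10* passed without 12-month replicate 2 alone, with limma adjusted p-values from 0.0348 to 0.11, and *Sox7* was lost without any of the 6 arrays, with values from 0.0547 to 0.133. With normexp both were called, with smaller differences of 1.51 for *Sox7* and -1.43 for *Sox10*.

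Markers of the other cell types an islet preparation can hold were read on the same arrays. Above background on all arrays were 10 of 10 endocrine, 16 of 17 acinar, 7 of 8 mesenchymal, 5 of 6 endothelial, 10 of 10 tested macrophage, 7 of 8 tested Schwann and nerve and 2 of 3 mesothelial genes. *Cd163*, a macrophage receptor, was above background on no array. Over all probes the share called was 8.37%. The genes of the acinar, endocrine, endothelial, macrophage and mesothelial lists had 0 calls, with median differences of 0.06, 0.25, -0.67, -0.70 and 0.21. Under the shift to a common 75th percentile the acinar, endocrine and mesothelial medians were -0.61, -0.15 and -0.22, and the endothelial gene *Cdh5* was called lower. With normexp the endothelial gene *Tek* was called lower and the endocrine gene *Iapp* higher. Of the mesenchymal genes 1 of 8 was called higher, the pericyte receptor *Pdgfrb*, by 1.68 (SE 0.38, limma adjusted p = 0.0453). The median was 1.43, and 7 of the 8 differences were above 0. The study's own criterion was met upward by 5 of the 8, against 22% of all probes in either direction. Of the Schwann and nerve genes 2 of 8 were called lower, *Sox10* and the neuronal filament gene *Prph*, the latter by 3.04 (SE 0.58, limma adjusted p = 0.0299). The median was -1.32, all 8 differences were below 0, and 5 of the 8 met the study's own criterion downward. The calls of *Pdgfrb* and *Prph* were each lost without any of 4 of the 6 arrays, with limma adjusted p-values up to 0.15 for *Pdgfrb* and up to 0.0865 for *Prph*.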

How the data were processed

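RNA of rat islets, from animals of 3 or 12 months, was hybridised to 6 Agilent arrays of Arraystar design, 3 of each age. The authors deposited scanner files of spot intensity, quantified by Agilent Feature Extraction 11.0.1.1. These hold an intensity with the background subtracted and the uncorrected median intensity of spot and local background, not normalized between arrays per the file headers. They also deposited a table of log2 values of 12145 probes, quantile normalized, with a filter not given in the sources used here.

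Here log2 of the subtracted intensity was averaged over the unmarked spots of each of 24684 probes and quantile normalized. The 17944 probes well above background on at least 3 of 6 arrays were kept, and 17941 could be tested. The difference of 12 minus 3 months was fitted for every probe in limma 3.58.1 (R 4.3.3; lmFit, then eBayes, two-sided), and p-values were adjusted over all tested probes by Benjamini-Hochberg. No list had a test of its own.

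Genes were named through RefSeq accessions in a table of assembly GRCr8, and a gene took its brightest probe. The array design uses an older build, so promoter coordinates are those of GRCr8. The members and lists were chosen with earlier results of these data known. The lists were duct secretion, duct identity, other keratins, annexins with S100a10, mucins and trefoil peptides, Sox genes, osteopontin receptors, and acinar, endocrine, mesenchymal, endothelial, macrophage, Schwann and nerve, and mesothelial markers. By rule, the called genes of a list were named besides the members, at most the 4 with the smallest p-values. Where none was called, the 2 with the brightest probes were named, and so were markers above background on no array. Outside this rule, *Sctr*, *Aqp1* and *Ano1* were picked after their values were seen. *Onecut1*, *Cdh1*, *Cldn4* and *Cldn7* were named as duct identity markers. *Sox2*, *Cdh5*, *Tek* and *Iapp* were named because they were called under another setting. A few list genes are counted but not reported here.

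Age came from the labels. The 12-month array called replicate 3 carries no number, and its number only names it. For that reason no block was used in the main fit. Deviations of same-numbered arrays had correlations across probes of -0.01, -0.31 and -0.26, the last resting on the assigned number. Arrays have no read depth, and their number limits the precision. The alternatives were another scaling, normexp with an offset of 50, the authors' table, other filters and probe rules, another variance model, array weights, replicate blocks, 4 arrays whose names share an ending, plain t-tests, an adjusted p under 0.1 and each array left out. The fit was also tested on simulated data. Noise there was drawn independently for each probe and array, so it cannot speak to deviations shared by an array or a scan.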

Additional observations from a re-analysis of the deposited data

How the results depend on the processing

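Of the 7 duct marker genes, 0 were called at an adjusted p under 0.05 in any of 20 alternatives, and none but the settings without 1 array changed the count at the study's criterion, which ran from 0 to 1 over them. The median difference of the 7 genes ran from -0.45 to 0.46. A shift to a common 75th percentile moved the median of all tested probes from -0.17 to -0.40 and that of the 7 genes to -0.39. *Tff2* kept its direction in all 19 alternatives, and no other duct marker did, although none was called in any of them. In what follows the cause of the reversals was not tested. The difference of *Spp1* was -0.20 and that of *Itgb1* -0.15 with the 75th percentile shift, and that of *Krt8* 0.089 with normexp. With array weights *Krt8* was at 0.096 and *Anxa2* at 0.46. With only the 4 arrays of a shared name ending, which leave 2 of each age, *Krt8* was at 0.033 and *Anxa2* at 0.086. With each array left out in turn, *Krt19* ran from -0.44 to 0.019, *Krt8* from -0.24 to 0.13, *Krt18* from -0.021 to 2.17, *Cftr* from -0.11 to 0.58, *Spp1* from -0.64 to 0.96, *Anxa2* from -0.59 to 0.23 and *Itgb6* from -0.10 to 0.34. The replicate block, over numbers that do not all come from the labels, left the count of called duct markers at 0. With the block over the numbered arrays 1 and 2, *Krt18* was at -0.81, *Cftr* at -0.0074, *Spp1* at -0.56 and *Anxa2* at 0.13. The called genes of other lists kept their direction in every alternative. Of 19 alternatives *Slc4a4* was called in 10, *Car2* in 6, *S100a10* in 7, *Sox7* in 8, *Pdgfrb* in 10 and *Prph* in 11, and *Sox10* in 7 of 17. *Epcam* and *Krt88*, not called as reported, were called in 5 and 3 of 19. With the 4 arrays of a shared name ending *Prph* was at -2.15.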
